A study of Mus musculus with 6 samples.

Results

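The 9 genes described here mark the enteroendocrine lineage of the intestinal epithelium and its serotonin-producing cells. They were chosen by symbol: the transcription factor genes Neurog3, Pax4, Neurod1, Insm1, Isl1 and Fev, and the serotonin cell and secretory genes Tph1, Tac1 and Scgn. All 9 symbols were found among the 24594 rows of the count table, 1 row each, and 8 of them passed the filter on low counts, which kept 12592 genes. Gene expression was measured by RNA sequencing of messenger RNA from mouse small-intestinal organoids, epithelial cultures that form crypt-like buds and villus-like regions. The organoids had been grown for 96 h from single cells and were then kept for 24 h with 5 uM NIBR-LTSi, an inhibitor of the Hippo pathway kinases LATS1 and LATS2, or with its solvent DMSO. Each group had 3 libraries, and the treated group was compared with the DMSO group. No genotype, strain or age of the mice is given in the sources used here, the cultures hold epithelium without the tissue around it, and the labels do not say whether replicates were separate cultures, so that a p-value here speaks only of the spread among these libraries, which may be technical.

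Enteroendocrine cells are rare hormone-secreting cells of the gut lining. They descend from crypt progenitors in which Notch signalling is low and which switch on Neurog3 for a short time. NEUROG3 then turns on further factors, among them PAX4, NEUROD1 and INSM1, that carry the cells through differentiation. One branch becomes enterochromaffin cells, which make serotonin with the enzyme TPH1 and often also the peptide substance P from the Tac1 precursor, and release both from granules when calcium rises.

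With NIBR-LTSi, 1 of the 8 tested genes fell, none rose and 7 were not called. The gene that fell was Tac1, the precursor of substance P and neurokinin A, at 12.9 ± 0.8 CPM in the DMSO group against 8.81 ± 0.87 CPM under the inhibitor (SD, n = 3). CPM are counts scaled to the library total and the TMM factor, and a gene was called at a Benjamini-Hochberg adjusted p under 0.05 in the edgeR quasi-likelihood test across all genes. Tph1, the rate-limiting enzyme of serotonin synthesis outside the brain, stood at 8.54 ± 0.55 and 8.33 ± 0.16 CPM. Neurog3, the commitment factor, was at 1.85 ± 0.39 and 1.18 ± 0.19 CPM and missed the threshold. Over all tested genes, 42.0% were called, 22.8% higher and 19.2% lower, beside the 1 of 8 here; that difference was not tested. The median log2 fold change (NIBR-LTSi over DMSO) of the 8 tested genes was -0.16, beside 0.02 over all tested genes.

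The sequences just before the start sites of Tac1, Neurog3 and Tph1 are shown. These were picked as the gene that fell, the commitment factor and the enzyme of serotonin synthesis. RefSeq promoters (GRCm38.p6) matched 7 of the 9 genes by symbol, with 8 entries since Tph1 has more than one start. Pax4 and Insm1 had no entry. Each run is the 250 bases before the start, 5′ to 3′ on the gene's strand. Capitals mark E-boxes (CANNTG, the site class of bHLH factors such as NEUROG3 and NEUROD1) and the TEAD letters GGAATG or their complement CATTCC (TEAD factors are the DNA-binding partners of YAP).

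Tac1, chr6:7554811-7555060, plus strand: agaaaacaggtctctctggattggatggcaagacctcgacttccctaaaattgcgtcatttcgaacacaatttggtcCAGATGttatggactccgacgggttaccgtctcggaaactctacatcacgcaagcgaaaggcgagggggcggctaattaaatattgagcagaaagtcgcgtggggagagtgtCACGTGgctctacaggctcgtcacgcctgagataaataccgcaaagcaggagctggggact
Neurog3, chr10:62132840-62133089, plus strand: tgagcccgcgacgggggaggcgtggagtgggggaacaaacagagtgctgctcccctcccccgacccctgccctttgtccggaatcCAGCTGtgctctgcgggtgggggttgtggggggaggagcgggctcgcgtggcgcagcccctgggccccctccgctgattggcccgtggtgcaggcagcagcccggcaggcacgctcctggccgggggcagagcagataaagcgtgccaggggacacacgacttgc
Tph1, chr7:46672538-46672787, minus strand: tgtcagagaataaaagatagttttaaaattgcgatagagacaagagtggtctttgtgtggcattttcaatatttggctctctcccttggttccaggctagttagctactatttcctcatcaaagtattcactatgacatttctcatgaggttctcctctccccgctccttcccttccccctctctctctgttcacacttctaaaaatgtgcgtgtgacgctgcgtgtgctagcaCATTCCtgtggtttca

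Tac1 had 2 E-boxes, whose first bases lie 173 and 61 bases before the start, and the first of them has the letters CAGATG. Neurog3 had 1 E-box, 165 bases before the start. Tph1 had no E-box in this window and 1 match to the TEAD letters, 16 bases before the start. Its second window (chr7:46667378-46667627) held neither, and so did those of Fev and Scgn. Neurod1 and Isl1 had 1 E-box each and no TEAD letters. Counting both strands, 66.2% of the 32851 promoter windows of this length hold an E-box, 14.4% hold CAGATG (a subset of the E-boxes) and 12.6% hold the TEAD letters. These matches are letters in a window and describe neither binding nor a cause.

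All 9 genes were expressed at low levels. Library totals ranged from 18395427 to 26767043 counts, and in this depth Pax4 had 51 counts over the 6 libraries, Neurog3 202, Isl1 286, Fev 292, Neurod1 327, Scgn 342, Insm1 728, Tph1 1143 and Tac1 1447. Of the 8 tested genes, 5 lay under 3 CPM with DMSO, as did 17.3% of all tested genes. Counting alone gives a log2 difference between the groups an error of 0.08 for Tac1, 0.09 for Tph1, 0.21 for Neurog3 and 0.41 for Pax4. In bulk samples fewer cells of a type and less RNA per cell cannot be told apart, and this holds for each difference given here.

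Levels of different genes were compared per kilobase of the deposited gene width (RPKM). With DMSO, Tac1 was highest at 8.47 ± 0.54 RPKM (SD, n = 3). Insm1 followed at 1.83 ± 0.20, then Scgn at 1.68 ± 0.27, Fev at 1.55 ± 0.28, Tph1 at 1.38 ± 0.09 and Neurog3 at 1.202 ± 0.254 RPKM. Among these 5 each overlapped the next in the order, so their ranks were not separated. The deposited width of Tac1, 1527 bases, is shorter than its 3399 merged exon bases in GENCODE M21, and a longer width would lower its RPKM. Neurod1 (0.824 ± 0.067 RPKM), Isl1 (0.528 ± 0.110) and Pax4 (0.335 ± 0.050) came last, and the DMSO libraries of each lay below all those of the gene before it.

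**Figure D1:**
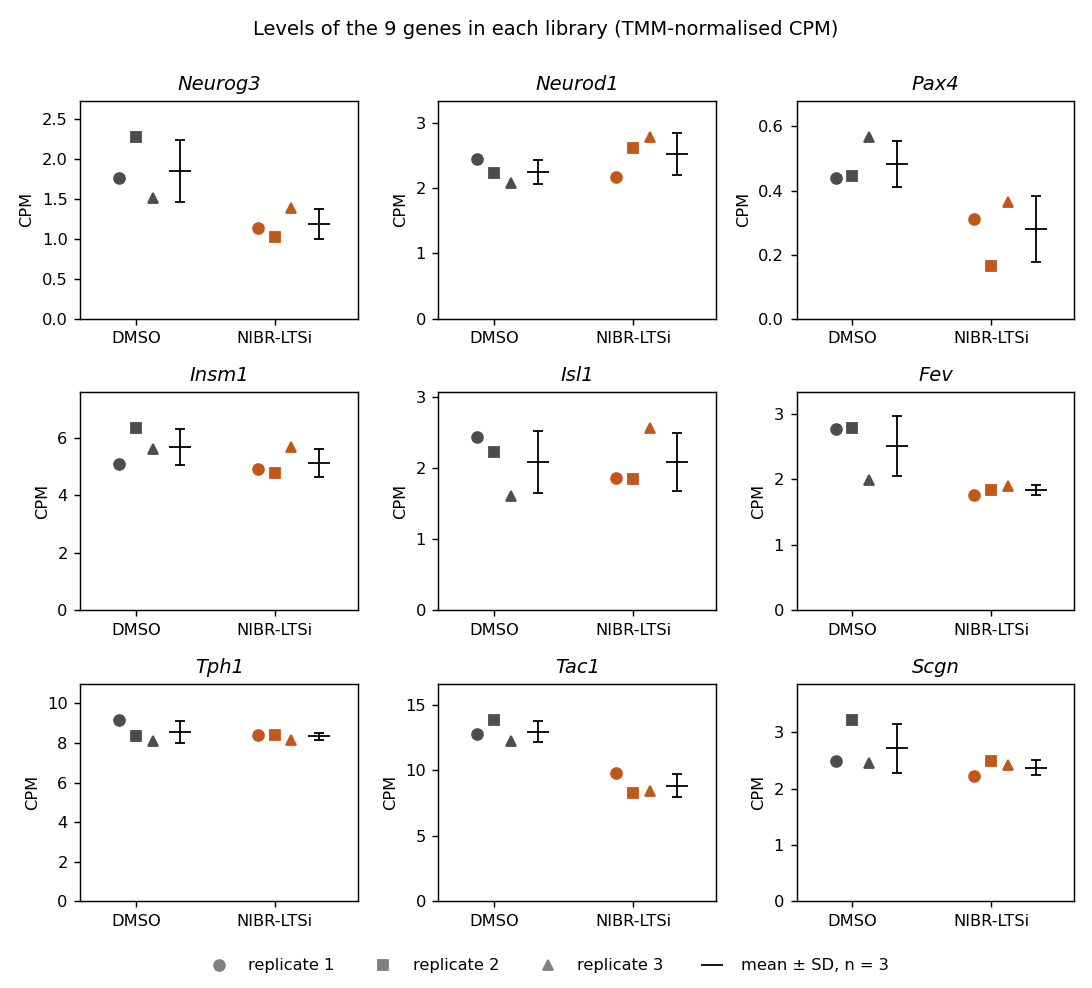
TMM-normalised CPM (vertical axes, starting at 0) of the 9 genes in each DMSO (grey) and NIBR-LTSi (orange) library, with the mean and SD of 3 libraries beside them. Tac1, Neurog3, Fev and Pax4 have all NIBR-LTSi libraries below all DMSO libraries, while the groups of the other 5 genes overlap.

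Neurog3 (Entrez 11925; chromosome 10, 62133090 to 62134763) encodes the bHLH factor that commits progenitors to the endocrine fate. It was at 1.76, 2.28 and 1.51 CPM in DMSO replicates 1 to 3 (44, 41 and 32 counts). With NIBR-LTSi it was at 1.14, 1.02 and 1.39 CPM (22, 25 and 38 counts). Every NIBR-LTSi library was below every DMSO library. The log2 fold change was -0.63 ± 0.25 (SE; approximate 95% interval -1.18 to -0.08), with an adjusted p of 0.0649 in the edgeR test. Of 14 alternatives it was called only when genes had to reach 1 CPM in 3 or more libraries (adjusted p = 0.0451), and the others gave adjusted p-values from 0.0520 to 0.220. Of its 1674 exon bases in GENCODE M21, 273 (16.3%) lie under Fam241b on the other strand, and the strand setting of the counting is not known here. Fam241b itself was at 14.3 ± 1.4 and 14.3 ± 1.0 CPM (adjusted p = 0.978).

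Pax4 (Entrez 18506; chromosome 6, 28442334 to 28449340), an early homeodomain factor downstream of NEUROG3, was below the filter. Its DMSO libraries held 11, 8 and 12 counts and its NIBR-LTSi libraries 6, 4 and 10. On the CPM scale the groups did not overlap, at 0.441, 0.444 and 0.567 against 0.310, 0.164 and 0.366 CPM. In the fit without a low-count filter its log2 fold change was -0.77 ± 0.52 (adjusted p = 0.317), so a difference was not detectable at this depth.

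Neurod1 (Entrez 18012; chromosome 2, 79452637 to 79456636), a bHLH factor that acts after Neurog3, was at 2.44, 2.22 and 2.08 CPM in the DMSO group against 2.17, 2.62 and 2.78 CPM under the inhibitor. The groups overlapped, and the log2 fold change was 0.17 ± 0.19 (interval -0.24 to 0.58, adjusted p = 0.504). Other annotated genes (Cerkl and Gm26755) share 13.0% of its exon bases. Cerkl had 31 counts in all libraries together.

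Insm1 (Entrez 53626; chromosome 2, 146221997 to 146225020), a zinc-finger factor of endocrine differentiation, was the most counted of the 6 transcription factor genes. Its levels were 5.09, 6.33 and 5.62 CPM in the DMSO group against 4.90, 4.79 and 5.70 CPM under the inhibitor. They overlapped, with a log2 fold change of -0.14 ± 0.13 (interval -0.42 to 0.15, adjusted p = 0.434). Isl1 (Entrez 16392; chromosome 13, 116298270 to 116309688), a LIM-homeodomain factor of hormone-producing cells, had means of 2.09 ± 0.43 and 2.09 ± 0.41 CPM. Its DMSO libraries spanned 1.61 to 2.44 CPM and its NIBR-LTSi libraries 1.84 to 2.56 CPM. Its interval of -0.50 to 0.51 on the log2 scale is wide, and the sign of its estimate turned in 4 of 14 alternatives.

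Fev (Entrez 260298; chromosome 1, 74881501 to 74885473) encodes an ETS-family factor known from serotonergic neurons. It was at 2.76, 2.78 and 1.98 CPM in the DMSO group against 1.76, 1.84 and 1.90 CPM under the inhibitor. The groups did not overlap, but DMSO replicate 3 lay close to the NIBR-LTSi libraries. The log2 fold change was -0.45 ± 0.21 (interval -0.90 to -0.00044, adjusted p = 0.100). It was not called under any alternative, and its smallest adjusted p was 0.0508, without DMSO replicate 3.

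Tac1 (Entrez 21333; chromosome 6, 7555061 to 7562978) was at 12.7, 13.8 and 12.2 CPM in DMSO replicates 1 to 3 (318, 249 and 259 counts). It was at 9.81, 8.22 and 8.41 CPM in NIBR-LTSi replicates 1 to 3 (190, 201 and 230 counts). The groups were apart, with the highest NIBR-LTSi library below the lowest DMSO library. This is a 1.47-fold lower level, a log2 fold change of -0.56 ± 0.10 (interval -0.77 to -0.35, adjusted p = 6.30e-04). The call was made under all 14 alternatives, at log2 fold changes from -0.64 to -0.51 and adjusted p-values from 9.95e-05 to 0.00478. No other annotated gene shares its exon bases.

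Tph1 (Entrez 21990; chromosome 7, 46644641 to 46672537) stayed within its spread. It was at 9.17, 8.33 and 8.12 CPM in the DMSO group against 8.41, 8.43 and 8.15 CPM under the inhibitor. The 3 NIBR-LTSi libraries lay inside the range of the DMSO libraries. The log2 fold change was -0.04 ± 0.09 (adjusted p = 0.767), and the approximate 95% interval, -0.25 to 0.17, excludes the log2 fold change of Tac1. The difference between both genes was not tested.

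Scgn (Entrez 214189; chromosome 13, 23953456 to 23991327) encodes secretagogin, an EF-hand calcium-binding protein of neuroendocrine cells. Its levels were 2.48, 3.22 and 2.46 CPM in the DMSO group against 2.22, 2.50 and 2.41 CPM under the inhibitor. The groups overlapped through NIBR-LTSi replicate 2, and the log2 fold change was -0.19 ± 0.19 (interval -0.59 to 0.22, adjusted p = 0.459).

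**Figure D2:**
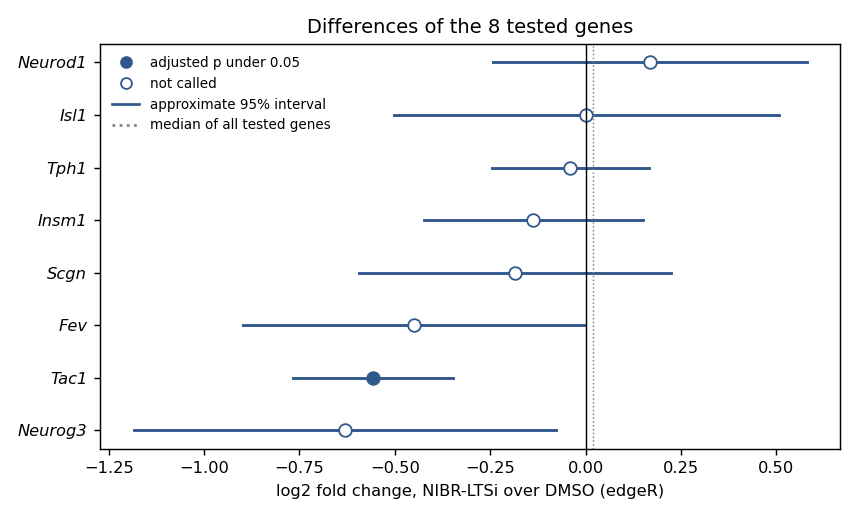
Log2 fold changes (NIBR-LTSi over DMSO, horizontal axis) of the 8 tested genes with approximate 95% intervals; filled points have an adjusted p under 0.05 and the dotted line is the median of all tested genes, 0.02. Tac1 is the only filled point, at -0.56, and 6 of the 8 estimates are below 0.

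Of the 8 tested genes, 3 had groups that did not overlap (Tac1, Neurog3 and Fev), all lower with NIBR-LTSi, while 52.5% of all tested genes did not overlap in one direction or the other. The summed level of the 9 genes was 39.3, 41.7 and 36.2 CPM in the DMSO libraries (replicates 1 to 3) against 32.6, 31.4 and 33.7 CPM in the treated ones. Without Tac1 the sums were 26.6, 27.8 and 23.9 CPM against 22.8, 23.2 and 25.3 CPM, and the groups overlapped. The order of the libraries within a group was shared by many of the genes: DMSO replicate 3 was the lowest DMSO library for 7 of the 9 genes, and NIBR-LTSi replicate 3 the highest of its group for 6 of the 9.

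The 7 enteroendocrine markers, Neurod1 among them, were all detected and 3 of them fell, and their summed level was 365 to 381 CPM in the DMSO group against 261 to 272 CPM under the inhibitor, most of it from Chgb. Sums of other epithelial markers moved in the same libraries. They were lower without overlap for enterocytes (28740 to 29642 CPM against 23642 to 25670 CPM, with 3 of 6 markers called higher and 3 lower), Paneth cells (565 to 622 against 454 to 511 CPM, 2 of 5 higher and 2 lower) and tuft cells (7.28 to 7.61 against 5.01 to 6.36 CPM, 1 of 5 lower). The goblet cell sum was higher without overlap (2640 to 3020 against 3122 to 3435 CPM, 2 of 6 higher). Most of that rise was Clca1, from 234 ± 4 to 792 ± 4 CPM, and the other called marker was Zg16. Fcgbp, Muc2, Tff3 and Agr2 had lower means with NIBR-LTSi and were not called, so the goblet markers did not rise as a set. The stem cell sum overlapped (149 to 159 against 158 to 170 CPM, 1 of 4 tested markers higher and 2 lower). Most of that sum was Smoc2, which rose from 127 ± 4 to 146 ± 6 CPM. Olfm4 fell from 17.5 ± 0.7 to 8.96 ± 1.17 CPM and Lgr5 from 3.05 ± 0.56 to 1.89 ± 0.22 CPM, so the stem cell markers did not move as a set. Mast cells also express Tph1. Of their 10 markers, Tpsab1, Cpa3, Fcer1a and Ms4a2 had no count, the 2 that could be tested were not called, and the sum was 6.37 to 7.23 CPM in the DMSO group against 6.66 to 7.53 CPM under the inhibitor, most of it from Kit. Enteric neurons also express Tac1. Of the 10 neuronal and glial markers, Sox10 had no count and Elavl4 had 3 counts over all libraries. Their sum was 6.22 to 7.18 CPM in the DMSO group against 4.96 to 5.15 CPM under the inhibitor. Most of that sum was Ret, which fell from 5.79 ± 0.41 to 3.97 ± 0.11 CPM (adjusted p = 0.00348), and its part in the Tac1 result was not tested. Of 5 immune markers, Cd3e had no count and Lyz2 fell (73 counts in all, adjusted p = 0.0427), with a sum of 2.28 to 2.50 CPM in the DMSO group and 1.24 to 2.56 CPM in the treated one. Of 6 mesenchymal markers, Dcn had no count, Col1a1 and Col3a1 had 1 each and Vim fell (adjusted p = 0.0431), with sums of 6.05 to 8.11 CPM and 4.79 to 5.52 CPM. The part of these markers in the results on the 9 genes was not tested.

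Among 16 other tested transcription factor genes of the enteroendocrine lineage, 1 rose and 3 fell. Their median log2 fold change was -0.22. This list, like those that follow, excludes the 9 genes and was not chosen independently of these data. Rcor2, a corepressor subunit gene, fell from 10.7 ± 1.0 to 7.40 ± 0.45 CPM (-0.52 ± 0.10 on the log2 scale, adjusted p = 0.00138). Sox4, an SRY-box factor expressed in endocrine progenitors, fell from 51.3 ± 3.1 to 38.0 ± 1.0 CPM (adjusted p = 7.72e-05), and 54.6% of its exon bases are shared with Gm26735 on the other strand. Tox3, an HMG-box factor gene, fell from 14.4 ± 0.8 to 11.97 ± 1.05 CPM (adjusted p = 0.0293). It was no longer called on omitting, singly, DMSO replicates 2 (0.0893) and 3 (0.0576) and NIBR-LTSi replicates 1 (0.0692) and 2 (0.0798), nor in DESeq2 (0.0839) or with library totals only (0.0692). Rfx3, a ciliary and islet cell factor, rose from 6.52 ± 0.17 to 8.55 ± 0.42 CPM (adjusted p = 0.00653), and was not called by DESeq2 (0.0643). Of the genes not called, Rfx6 was at 3.29 ± 0.25 and 2.87 ± 0.48 CPM, Nkx2-2 (with 9.67% of its exon bases shared with Nkx2-2os) at 3.68 ± 0.42 and 3.39 ± 0.28 CPM, and Foxa1 and Foxa2, pioneer factor genes, had adjusted p-values of 0.521 and 0.269.

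Of the genes listed for secretory specification, which act before or beside Neurog3 or in other secretory cells, 10 were tested, of which 1 rose and 3 fell (median log2 fold change -0.03, and 0.03 without DMSO replicate 1). Dll4, a Notch ligand, fell from 5.91 ± 0.24 to 3.19 ± 0.32 CPM (-0.89 ± 0.13 on the log2 scale, adjusted p = 1.93e-04). Hes6, an inhibitor of HES1 found in secretory progenitors, fell from 60.1 ± 1.0 to 47.9 ± 2.1 CPM (adjusted p = 2.30e-04). Dll1, a ligand of the same family, rose 1.22-fold (adjusted p = 3.99e-04); A930024N18Rik on the other strand shares 20.5% of its exon bases. Bhlha15, which encodes the secretory cell factor MIST1, fell 1.44-fold at the threshold (adjusted p = 0.04999), with overlapping groups. That call was lost in 9 of 14 alternatives, among them the fits lacking DMSO replicate 1 (0.140), DMSO replicate 2 (0.201) and NIBR-LTSi replicates 1 (0.117) and 2 (0.118). Hes1, the Notch target that represses Neurog3, was at 41.4 ± 2.8 and 40.3 ± 1.8 CPM (adjusted p = 0.664). Spdef, a goblet cell factor, and Sox9, a crypt factor, had adjusted p-values of 0.845 and 0.933. Notch1 was called higher only without DMSO replicate 3 (adjusted p = 0.0278; 0.357 with all libraries).

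Around Tph1, 12 genes of serotonin synthesis, storage, uptake and breakdown were tested, of which 2 rose and 5 fell (median log2 fold change -0.11). Without NIBR-LTSi replicate 3, 3 rose and 4 fell. Slc6a4, the serotonin reuptake transporter, which is known from enterocytes, fell from 83.9 ± 3.9 to 52.3 ± 2.9 CPM (-0.68 ± 0.05 on the log2 scale, adjusted p = 1.51e-06). Its libraries were at 80.1, 87.9 and 83.6 CPM with DMSO against 55.2, 52.4 and 49.3 CPM under the inhibitor, with a wide gap between the groups. Maoa, the mitochondrial oxidase that breaks serotonin down, rose from 1108 ± 14 to 1375 ± 49 CPM (adjusted p = 2.46e-05), while its relative Maob was not called (238 ± 8 and 232 ± 3 CPM). Slc18a1, the vesicular monoamine transporter that loads serotonin into granules of enterochromaffin cells, rose from 26.1 ± 0.5 to 32.3 ± 1.1 CPM (0.31 ± 0.06 on the log2 scale, adjusted p = 9.48e-04). Ddc, the decarboxylase that completes serotonin synthesis, fell 1.10-fold from 189 ± 3 CPM (adjusted p = 0.00721). The other vesicular transporter gene, Slc18a2, had 79 counts in all (0.392 ± 0.147 and 0.762 ± 0.390 CPM, adjusted p = 0.137).

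TPH1 needs the cofactor tetrahydrobiopterin, and 3 of 6 tested genes of its synthesis, recycling and regulation fell. Gchfr, the feedback regulator of the first cofactor enzyme, fell from 22.8 ± 1.6 to 13.7 ± 1.7 CPM (-0.74 ± 0.09 on the log2 scale, adjusted p = 5.51e-05). Qdpr, which recycles the cofactor, fell from 180 ± 8 to 144 ± 9 CPM (adjusted p = 3.64e-04), and Gm42413 on the other strand shares 18.6% of its exon bases. Spr, the last enzyme of cofactor synthesis, fell 1.12-fold (adjusted p = 0.0203). Spr was not called with library totals only (0.0668), nor on omitting, singly, DMSO replicates 1 (0.0565) and 2 (0.0679) and NIBR-LTSi replicate 3 (0.0752). Gch1, the first enzyme, was at 26.4 ± 0.6 and 24.8 ± 1.0 CPM (adjusted p = 0.264), and Pts and Pcbd1 were not called (0.156 and 0.157). Several of these genes stood far above Tph1 in CPM, and bulk libraries do not show which cells held their RNA.

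**Figure D3:**
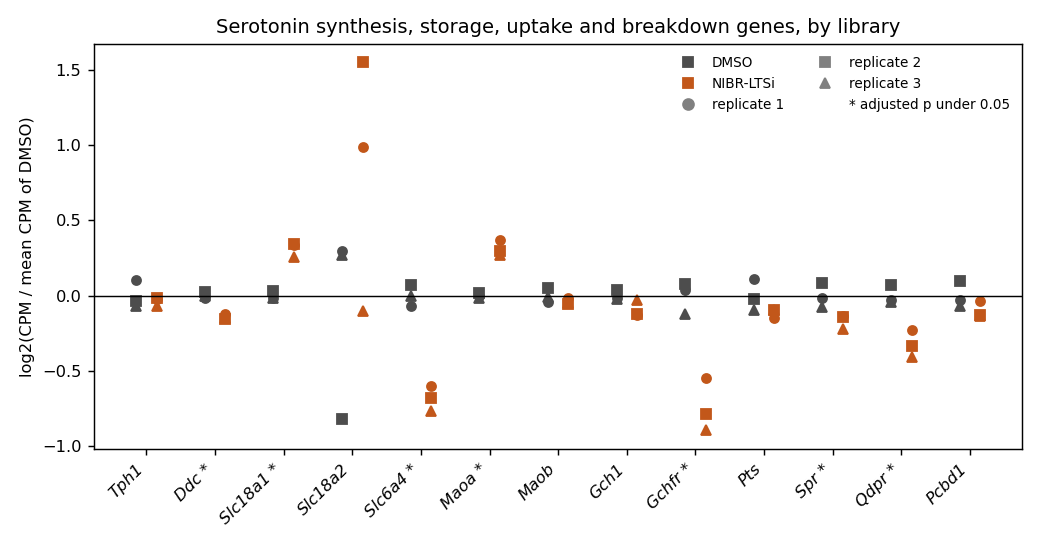
Level in each library relative to the DMSO mean, as log2(CPM / mean CPM of DMSO), for Tph1 and 12 genes of the serotonin pathway; dark grey marks are DMSO, orange marks NIBR-LTSi, the marker shape gives the replicate, and a star marks an adjusted p under 0.05. Tph1 lies near 0 in both groups, Slc6a4 and Gchfr lie lower with NIBR-LTSi, and Slc18a1 and Maoa lie higher.

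Of 8 other tested genes listed for enterochromaffin traits, some of them shared with other cells, 1 rose and 3 fell (median log2 fold change -0.29). The granins Chga and Chgb, core proteins of secretory granules in most enteroendocrine cells, fell from 56.7 ± 1.4 to 41.9 ± 1.0 CPM and from 304 ± 9 to 214 ± 6 CPM. Their log2 fold changes were -0.44 ± 0.05 and -0.50 ± 0.04 (adjusted p = 2.04e-05 and 1.11e-06), beside -0.56 ± 0.10 for Tac1. Trpa1, the irritant-sensing channel of these cells, fell from 6.44 ± 0.65 to 5.11 ± 0.18 CPM (adjusted p = 0.0411). That call was lost in 9 of 14 alternatives, including the omission of any 1 library other than DMSO replicate 1 (0.0550 to 0.155). The gene that rose was Slc18a1. Lmx1a, an enterochromaffin transcription factor gene, was at 1.46 ± 0.12 and 1.23 ± 0.19 CPM (adjusted p = 0.458). Adra2a, the adrenergic receptor that restrains serotonin release, was at 1.80 ± 0.21 and 2.41 ± 0.14 CPM with groups that did not overlap (adjusted p = 0.0994). Gpr35 and Ffar2, receptors for metabolites, were not called (0.403 and 0.170), Piezo2 had no count, and Cartpt was below the filter.

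Genes of regulated secretion included 1 that rose and 6 that fell among 19 tested (median log2 fold change -0.26). The number that fell was 2 in DESeq2, 3 on omitting either of DMSO replicates 2 and 3 or NIBR-LTSi replicate 1, and 4 on omitting DMSO replicate 1 or NIBR-LTSi replicate 2. Without DMSO replicate 2 the number that rose was 2. Pam, which amidates peptides such as substance P, rose from 10.5 ± 1.8 to 30.7 ± 1.2 CPM, a 2.95-fold rise (log2 fold change 1.56 ± 0.10, adjusted p = 2.99e-07). Its libraries were at 9.05, 12.5 and 9.97 CPM in the DMSO group against 32.1, 29.9 and 30.2 CPM under the inhibitor, with no overlap. Besides Chga and Chgb, 4 further genes fell: Scg3 (granin family, 1.51-fold), Pcsk1n (inhibitor of a prohormone convertase, 2.26-fold from 0.611 ± 0.127 CPM), Rab3a (vesicle GTPase, 1.21-fold) and Cplx2 (complexin, 1.35-fold). All 4 lost their calls in DESeq2 (adjusted p from 0.104 to 0.172) and when single libraries were left out. For Scg3 these were all but NIBR-LTSi replicate 2 (0.0561 to 0.131), and for Pcsk1n DMSO replicate 3 and each NIBR-LTSi replicate (0.0615 to 0.101). For Rab3a they were DMSO replicates 2 and 3 and NIBR-LTSi replicate 2 (0.0533 to 0.0658), and for Cplx2 DMSO replicates 1 and 2 and NIBR-LTSi replicate 1 (0.0773 to 0.143). The most abundant uncalled genes were Rph3al, Cpe, Ptprn2 and Pcsk1. Cpe and Pcsk1, both enzymes of prohormone processing, were at 15.3 ± 1.3 and 14.1 ± 0.4 CPM and at 12.1 ± 1.1 and 10.97 ± 0.55 CPM.

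Of 10 other tested hormone genes, 3 rose and 3 fell (median log2 fold change -0.06). Of those that rose, Pyy and Nts lost their calls in DESeq2, and only 1 rose when any single library other than NIBR-LTSi replicate 1 was left out, which left 2. Ghrl (ghrelin), Gip and Cck (cholecystokinin) fell 1.77-fold, 1.32-fold and 1.16-fold. Gm26982 and Gm44033 on the other strand share 15.9% of the exon bases of Ghrl. Cck was not called without DMSO replicate 2 (adjusted p = 0.0643) or NIBR-LTSi replicate 2 (0.0721), which left 2 that fell. Gcg (proglucagon) rose 1.54-fold, and Sst was not called (18.1 ± 1.2 and 18.0 ± 1.2 CPM).

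**Figure D4:**
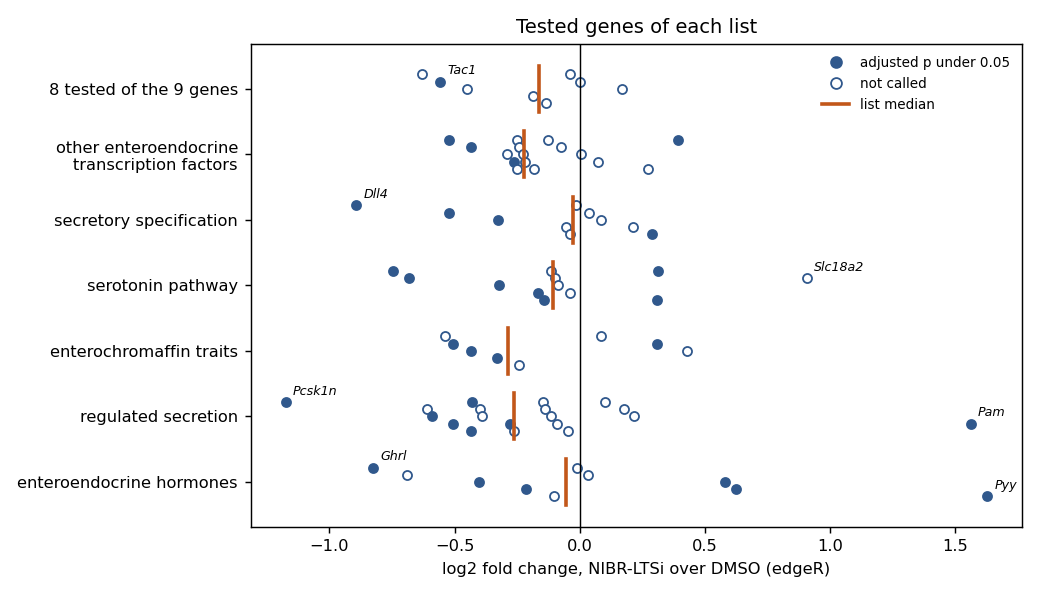
Log2 fold changes (NIBR-LTSi over DMSO, horizontal axis) of the tested members and the tested genes of 6 lists, with filled points for an adjusted p under 0.05 and an orange bar at the list median. The medians of the 7 rows lie between -0.29 and -0.03, and Pam and Pyy are the farthest to the right of the genes drawn. The lists of EF-hand relatives and of tachykinin and serotonin receptor genes are not drawn.

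The genes whose levels followed Neurog3 and Tph1 most closely over the 6 libraries were ranked by Pearson r of log2 CPM among 11629 genes of at least 1 CPM, as a description. For Neurog3 they were Cacna2d1 (r = 0.993), Ctdnep1 (0.991) and Etfrf1 (0.990). For Tph1 they were Dnajc7 (0.999), Pus3 (0.974) and Ahsa2 (0.957). The 6 points share their library depth and include the difference between the groups. The named genes are the highest of 11629 over only 6 points, and shared regulation was not tested.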

How the data were processed

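The authors deposited 1 table of raw read counts per gene for 6 libraries, with an Entrez identifier, symbol and gene width per row. Per the submitters' processing notes the build was mm10 and edgeR was used. Which aligner, counter and strand setting were used is not known here. Counts were filtered with filterByExpr and scaled by TMM, and the test was the edgeR 4.0.16 quasi-likelihood test (R 4.3.3, robust, two-sided, group as the only term), adjusted by Benjamini-Hochberg over 12592 genes. The SE is the absolute log2 fold change over the root of F, so intervals (95%) are approximate. RPKM use the deposited gene width, a number of bases. The procedure was also run on counts simulated with its own fitted dispersions, with an outcome not reported here. Such counts share the model of the test and cannot show whether that model holds for these libraries. No library pair within a group agreed within sampling noise (chi-square per degree of freedom 3.85 to 9.29). Positions are RefSeq, GRCm38.p6. The 9 genes and all lists were chosen with earlier results of these data known. Named genes were the 9, every called gene of a list, up to 4 uncalled ones of highest CPM, and the 3 genes most like Neurog3 and Tph1; others were added after their values were seen, and some listed genes are not reported here. The 14 alternatives were limma-voom (3.58.1), DESeq2 (1.42.0), 3 other scalings, 2 other filters, a replicate block and 6 fits each without 1 library.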

Additional observations from a re-analysis of the deposited data

How the results depend on the processing

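Under the 14 alternatives no member was called higher, and 1 was called lower except under the filter of at least 1 CPM in 3 libraries, where Neurog3 joined Tac1 and 2 were lower. Fits without 1 library assume a group of 2 to vary like the other. Tac1, Neurog3, Fev, Insm1, Scgn and Neurod1 kept their direction. Isl1 turned to -0.0174 in DESeq2 and -0.0170 with DESeq2 size factors, and ranged from -0.19 to 0.14 without single libraries. Tph1 was at 0.0049 with library totals only and at -0.0768 to 0.0173 without single libraries. Library totals only also turned Hes1 (0.0072), Sox9 (0.0288), Maob (0.0052) and Sst (0.0352), and limma-voom turned Sct (-3.02e-05). Without single libraries Foxa1 ranged from -0.0021 to 0.13, Sox9 from -0.10 to 0.15, Spdef from -0.0541 to 0.14, Sst from -0.0635 to 0.0405 and Sct from -0.13 to 0.21. The cause was not tested. Of 32 called list genes, 18 kept their call throughout. Pairing by replicate number was not consistent (correlations of deviations 0.05, -0.30 and 0.56, with 2 of 6 libraries closest to their own number). With 3 libraries per group this check cannot exclude a pairing. With a replicate block 1 member was lower, Tac1 had a log2 fold change of -0.55, Sox9 turned to 0.0023, and 4945 of 12592 genes were called against 5287. Depth limits Pax4 and Neurog3 most.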

Other observations

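Tac2, which encodes the related tachykinin neurokinin B, was barely detected and went the other way from Tac1. It had 41 counts in all libraries together, 0.124 ± 0.016 CPM in the DMSO group against 0.465 ± 0.026 CPM under the inhibitor (SD, n = 3). Its log2 fold change was 1.85 ± 0.43, with an adjusted p of 0.00453 in the edgeR test. DESeq2 did not call it (adjusted p = 0.0849), and it was below the filter on omitting NIBR-LTSi replicate 2 and where 1 CPM in 3 libraries was required. The tachykinin receptor genes Tacr1, Tacr2 and Tacr3 and the serotonin receptor genes Htr3a and Htr4 had no count in any library, and Htr1d had 11 counts over the 6 libraries.

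Among EF-hand relatives of Scgn, the calmodulin gene Calm3 fell 1.08-fold (adjusted p = 0.0247 in the edgeR test), while Calm2 was not called (0.180). Calm3 was not called with library totals only (0.131), nor on omitting DMSO replicate 1 (0.0884) or NIBR-LTSi replicates 2 (0.0725) and 3 (0.0820) singly. The calbindin genes Calb1 and Calb2 had no count.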
